A study of Mus musculus with 20 samples.

Results

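Cone photoreceptors were compared with rod photoreceptors inside the same 4 libraries of cultured CD1 wildtype mouse retina that received a GFP control construct and carried the age label postnatal day 2 (P2). Cells were taken as the authors named them: 535 cells named cones (352, 89, 50 and 44 in control libraries 1 to 4) and 13602 cells named rods (6928, 2627, 2308 and 1739), of 31733 P2 control cells and of 79009 cells, 842 cones and 38650 rods in the whole series. For each library the transcript counts (unique molecular identifiers, UMIs) of its cones were added up, as were those of its rods, which gave 4 pairs of sums.

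Per the series design text, the construct backbone was pCAGIG, in which a ubiquitous promoter drives the insert and GFP, and GFP-positive cells were sorted before 10x Genomics 3′ library preparation, so only electroporated cells entered and their shares reflect that gate. The same comparison was made in 5 P2 libraries that carried MEIS constructs in place of the control (2 of MEIS1, 1 of MEIS2 and 2 of an equal mixture, each with 15 to 19 cones) and in 2 GFP control libraries labelled postnatal day 5 (P5). P-values of the P2 control fit rest mostly on a variance shared over genes (prior degrees of freedom 38.8, residual 3), not on each gene's own spread. The labels do not say whether libraries came from separate animals, so p-values speak only of these libraries. They also disagree with each other: the design text names NR2F1 and NR2F2 as inserts and 2 or 5 days of treatment where the sample labels name MEIS factors and ages, and in none of the 4 P2 controls do the cell names begin with the library's own name. Those of P2 control 1 begin with the name of a MEIS mixture library, those of P2 control 2 with the name of P2 control 4, and those of P2 controls 3 and 4 with control names that no sample has as its title. Libraries here follow the deposited table of cells, whose library names match the sample labels, so values given library by library rest on that table.

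Rods and cones detect light with parallel sets of proteins. A photon activates an opsin, the opsin activates a transducin G protein, transducin activates the phosphodiesterase PDE6, and the fall in cyclic GMP closes cation channels; arrestins and guanylate cyclase activating proteins then reset the response. Most steps use separate rod and cone genes. In mice cones are born mainly before birth and rods mainly around and after it, NRL and its target NR2E3 drive the rod program and hold down cone genes, and the thyroid hormone receptor THRB with RXRG governs the choice between the S opsin (Opn1sw) and the M opsin (Opn1mw).

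The cells named cones were exactly the authors' cluster 15, and the cells named rods exactly clusters 0, 1 and 2. How clusters were made and named is not given in the sources used here; if from the expression of these cells, every gene took part in defining the classes. The test below therefore sets each difference against a spread between libraries that is mostly shared over genes. It does not say that cones and rods differ, and cells of the MEIS and P5 libraries carry the same cluster numbers. Cones made up 1.98, 1.89, 0.950 and 1.09 percent of the cells of libraries 1 to 4. Their median UMIs per cell were 3334, 2455, 2854 and 5540 against 4867, 1728, 2183 and 3593 in rods, higher in 3 of 4 libraries (mean ratio 1.18, exact paired permutation p 0.5, two-sided; the smallest p that 4 pairs allow is 0.125). Median mitochondrial percentages were 7.86, 9.54, 2.76 and 3.05 in cones and 3.39, 5.20, 2.10 and 2.90 in rods, higher in cones in 4 of 4 (exact paired permutation p 0.125, two-sided). Libraries 1 and 2 thus stood apart from 3 and 4, and several genes below split the same way; the part of mitochondrial content in those splits was not tested. P2 controls shared 3 to 30 barcodes per pair of libraries.

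Of 11605 genes tested with edgeR's quasi-likelihood test (library as block), 1204 were higher and 789 lower in cones at a Benjamini-Hochberg adjusted p under 0.05, here called genes, which is 17.2 percent (10.4 percent higher, 6.8 percent lower). The median log2 difference of all genes was -0.05. Cones exceeded rods in 4 of 4 libraries for 14 percent of genes and lay below them for 22.7 percent. The share of all genes whose cone and rod ranges did not overlap was not counted. Leaving out library 1, which holds most cones, gave 728 and 392, and leaving out library 3 gave 1032 and 467. The levels below are CPM, the UMIs of a gene scaled by all UMIs of the same sum, listed for libraries 1 to 4 in order.

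Cone light response genes were higher in cones in nearly every case: 9 of 10 tested were called higher and 0 lower, with a median log2 difference of 5.25 against -0.05 for all genes. Opn1sw, the S opsin, stood at 739, 1062, 821 and 1197 CPM in cones and 37.1, 22.5, 22.1 and 7.89 CPM in rods. The lowest cone value lay far above the highest rod value, a 42.3-fold difference in the fit (log2 5.40, SE 0.32, adjusted p 1.59e-17). Gnat2, the cone transducin alpha subunit, was at 250, 347, 536 and 422 CPM in cones and 7.37, 12.5, 14.8 and 7.36 CPM in rods (log2 5.10, SE 0.23). Arr3, cone arrestin, was at 157, 308, 74.6 and 69.2 CPM against 3.07, 2.03, 1.10 and 0.134 CPM (log2 6.29, SE 0.30). For both genes the groups did not overlap, and cone Arr3 was higher in libraries 1 and 2 than in 3 and 4.

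The other cone genes covered the phosphodiesterase, the channel and the exchanger that clears calcium. Pde6c, the catalytic subunit of cone PDE6, read 256, 412, 115 and 225 CPM in cones and 3.99 to 15.1 CPM in rods (log2 5.02, SE 0.28), and Slc24a2, the cone sodium/calcium-potassium exchanger, 170 to 611 CPM against 1.65 to 5.06 CPM (log2 6.53, SE 0.25). Cnga3 and Cngb3 form the cone channel. Cnga3 was at 34.3, 143, 40.7 and 34.6 CPM in cones and at most 0.366 CPM in rods (log2 7.37, SE 0.43), whereas Cngb3 was at 2352, 2440, 658 and 772 CPM in cones and already at 560, 381, 212 and 163 CPM in rods (log2 2.06, SE 0.26). Pde6h, the inhibitory subunit of cone PDE6, was low in cones, 5.51 to 45.0 CPM, and had 6 UMIs in all rods together (log2 6.63, SE 0.70).

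Gnb3 and Gngt2 differed less than the other tested cone genes, and Opn1mw was almost absent. Gnb3, the cone transducin beta subunit, was at 1069, 992, 1059 and 1616 CPM in cones and 617, 505, 455 and 638 CPM in rods (log2 0.97, SE 0.25, adjusted p 0.00336 in edgeR); the groups did not overlap, but the call was lost without library 1, 3 or 4 (log2 0.88 to 1.06; adjusted p 0.0507 to 0.0564). Gngt2, the cone transducin gamma subunit, was abundant in both: 1402, 1005, 4804 and 4488 CPM in cones and 899, 1706, 2088 and 2156 CPM in rods. Its cone values in libraries 3 and 4 were above all others, its cone value in library 2 was below that library's rods, and it was not called (log2 0.45, SE 0.32, adjusted p 0.378 in edgeR; -0.15 with libraries 1 and 2 only). Library 2 decided that call: without it Gngt2 was called higher (log2 0.87, adjusted p 7.11e-06 in edgeR). It was also called higher with libraries 3 and 4 only (log2 1.01), a pair taken after the data were seen. Opn1mw, the M opsin, had 5 UMIs in the cones of library 1 and 0 in all other cones and in all rods, where 0 of 13602 cells allows a share of cells with a UMI of up to 0.0221 percent, which does not limit the share that expresses the gene; it was too low to test.

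**Figure D1:**
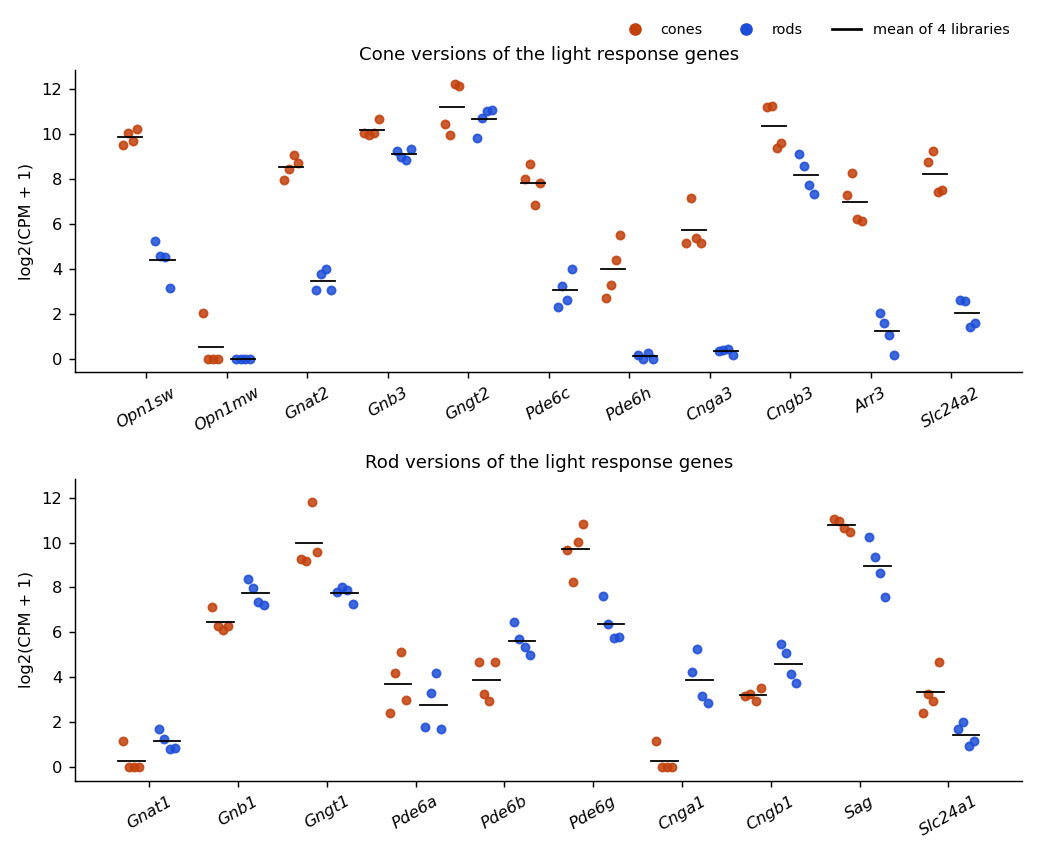
Levels of the cone (top) and rod (bottom) versions of the light response genes as log2(CPM + 1) on the vertical axis, 1 point per P2 control library, cones orange and rods blue, with the mean of 4 libraries as a black line. In the top panel orange points lie above all blue points except for Gngt2 and Opn1mw. In the bottom panel Gngt1, Pde6g, Sag and Slc24a1 have orange points above blue ones, while Gnb1, Pde6b, Cnga1 and Cngb1 have them below.

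Promoter sequence is shown for 6 photoreceptor genes that the comparison turns on: Opn1sw and Gnat2 (cone genes), Guca1a (a shared gene with a large difference), Sag (a rod gene higher in cones), and Nrl and Nr2e3 (rod factors lower in cones). Each is the stretch of 250 bases before the RefSeq start on GRCm38.p6, 5′ to 3′ on the gene's strand: chr6:29380514-29380763 (minus) for Opn1sw, chr3:108092816-108093065 (plus) for Gnat2, chr17:47400607-47400856 (minus) for Guca1a, chr1:87803430-87803679 (plus) for Sag, chr14:55524253-55524502 (minus) for Nrl and chr9:59950080-59950329 (minus) for Nr2e3. Capitals mark TAATCC on either strand (GGATTA on the printed strand), a core that the photoreceptor homeodomain factors CRX and OTX2 are known to bind.
Opn1sw: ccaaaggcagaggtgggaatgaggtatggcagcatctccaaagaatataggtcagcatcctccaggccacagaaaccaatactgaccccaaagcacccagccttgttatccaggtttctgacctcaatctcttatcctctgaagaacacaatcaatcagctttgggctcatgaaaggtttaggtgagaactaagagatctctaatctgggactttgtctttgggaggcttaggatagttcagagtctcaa
Gnat2: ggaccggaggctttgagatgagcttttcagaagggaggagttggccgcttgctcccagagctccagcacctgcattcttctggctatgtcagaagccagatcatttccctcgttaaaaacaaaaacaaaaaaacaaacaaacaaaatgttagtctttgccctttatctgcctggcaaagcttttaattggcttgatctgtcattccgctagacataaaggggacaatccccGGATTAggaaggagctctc
Guca1a: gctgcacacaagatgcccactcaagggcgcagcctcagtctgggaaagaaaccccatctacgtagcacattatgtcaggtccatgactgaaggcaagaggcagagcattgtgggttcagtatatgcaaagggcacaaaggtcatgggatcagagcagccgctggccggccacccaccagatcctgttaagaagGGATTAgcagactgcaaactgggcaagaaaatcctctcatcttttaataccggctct
Sag: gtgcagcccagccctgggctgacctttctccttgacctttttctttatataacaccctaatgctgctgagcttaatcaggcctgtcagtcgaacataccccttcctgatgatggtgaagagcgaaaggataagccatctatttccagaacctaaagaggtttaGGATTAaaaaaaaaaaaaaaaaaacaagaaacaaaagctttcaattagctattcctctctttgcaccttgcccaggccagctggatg
Nrl: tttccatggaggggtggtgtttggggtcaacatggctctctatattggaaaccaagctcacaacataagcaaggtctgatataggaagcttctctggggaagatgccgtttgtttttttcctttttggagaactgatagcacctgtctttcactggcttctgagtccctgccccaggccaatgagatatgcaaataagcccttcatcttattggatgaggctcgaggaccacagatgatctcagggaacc
Nr2e3: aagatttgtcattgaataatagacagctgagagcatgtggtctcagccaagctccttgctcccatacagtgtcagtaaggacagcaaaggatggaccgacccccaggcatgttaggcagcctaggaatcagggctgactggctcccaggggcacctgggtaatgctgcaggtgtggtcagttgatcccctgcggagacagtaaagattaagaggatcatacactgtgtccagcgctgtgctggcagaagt
TAATCC occurred in 6.25 percent of the 32851 promoters of this length, in 1 of 6 cone light response genes called higher that had a promoter entry (Gnat2), in 2 of 4 rod genes called lower (Cnga1 and Cngb1), in 2 of 3 rod genes called higher (Sag and Gngt1) and in 4 of 8 shared photoreceptor genes called higher (Mpp4, Aipl1, Rbp3 and Guca1a). TGCTGA, a core that NRL is known to bind (either strand, no overlap with TAATCC), occurred in 16.1 percent of all promoters and in 1 of 6, 1 of 4, 1 of 3 and 5 of 8 of these groups. These are letter matches in a short window and say nothing of binding. All promoters were counted by entry. The groups were counted by gene, with a match in any entry of the gene, so the shares are not strictly alike.

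Rod light response genes split: 4 of 9 tested were called higher in cones, 4 lower, beside 10.4 and 6.8 percent of all genes. Gnb1, Pde6b, Cnga1 and Cngb1 were called lower, with cones below every rod library: Gnb1, a transducin beta subunit, had 67.9 to 140 CPM against 149 to 334 CPM (log2 -1.37, SE 0.22), and Cngb1, a rod channel subunit, 6.79 to 10.4 CPM against 12.3 to 43.0 CPM (log2 -2.02, SE 0.40; without library 1, log2 -1.27, adjusted p 0.220). Cnga1, the other rod channel subunit, had 2 UMIs in all cones and 1001 in all rods, a ratio of pooled CPM of 19.96 (exact 95 percent counting interval 5.51 to 165). With libraries 3 and 4 only, Pde6b, Cnga1 and Cngb1 were not called. Pde6a, a catalytic subunit of rod PDE6, was not called (log2 0.88, SE 0.45, adjusted p 0.197). Gnat1, rod transducin alpha, was too low to test, at 0 to 1.22 CPM in cones and 0.732 to 2.27 CPM in rods.

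The rod genes called higher in cones were Sag, Gngt1, Pde6g and Slc24a1. Sag, rod arrestin, was at 2144, 2006, 1595 and 1398 CPM in cones and 1202, 656, 402 and 188 CPM in rods, without overlap (log2 1.71, SE 0.29, adjusted p 1.23e-05 in edgeR). Gngt1, rod transducin gamma, was at 623, 576, 3596 and 754 CPM against 218, 257, 238 and 154 CPM (log2 2.10, SE 0.31), with the cones of library 3 far above the rest. Pde6g, the inhibitory subunit of rod PDE6, was at 815, 299, 1045 and 1827 CPM against 197, 81.5, 53.3 and 54.6 CPM (log2 3.21, SE 0.35). Slc24a1, the rod exchanger, was called at low levels (4.28 to 24.2 against 0.915 to 2.97 CPM; log2 2.04, SE 0.59), and not without library 4 (log2 1.20, adjusted p 0.277 in edgeR).

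Which rods served as the partner mattered for these genes. The 3 rod clusters differ in exactly such transcripts, and since clusters may come from expression this is given as a description. Mean levels in clusters 0, 1 and 2 were 181, 441 and 2551 CPM for Sag, 69.9, 133 and 1106 CPM for Gngt1 and 29.5, 67.4 and 428 CPM for Pde6g. Neurod4, a neurogenic factor, ran the other way, at 1827, 1233 and 508 CPM. Cluster 2 held 25.3, 19.0, 12.9 and 8.68 percent of the rods of libraries 1 to 4.

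Against cluster 0 rods alone, the log2 difference of cones was 3.32 for Sag and 3.75 for Gngt1; against cluster 2 rods it was -0.39 (SE 0.25, adjusted p 0.402 in edgeR) and -0.11 (SE 0.29, adjusted p 0.892), no longer called and of opposite sign. Pde6g stayed called higher in all comparisons, at 4.82, 3.77 and 1.05. Among the rod genes called lower, Gnb1 stayed called against every cluster. Pde6b and Cngb1 were not called against cluster 0 (log2 -0.32 and -0.23, adjusted p 0.552 and 0.800 in edgeR), and Cnga1 was not tested there. Counted by list, cones had 5 rod light response genes called higher and 1 lower against cluster 0 (8 tested; 20 percent of all genes called) and 1 higher and 4 lower against cluster 2 (7 tested; 12.3 percent). Cone light response genes gave 9 of 10, 8 of 9 and 8 of 9 higher against clusters 0, 1 and 2 (of all genes 18.6 percent were called against cluster 1), so their direction did not turn on the rods chosen.

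**Figure D2:**
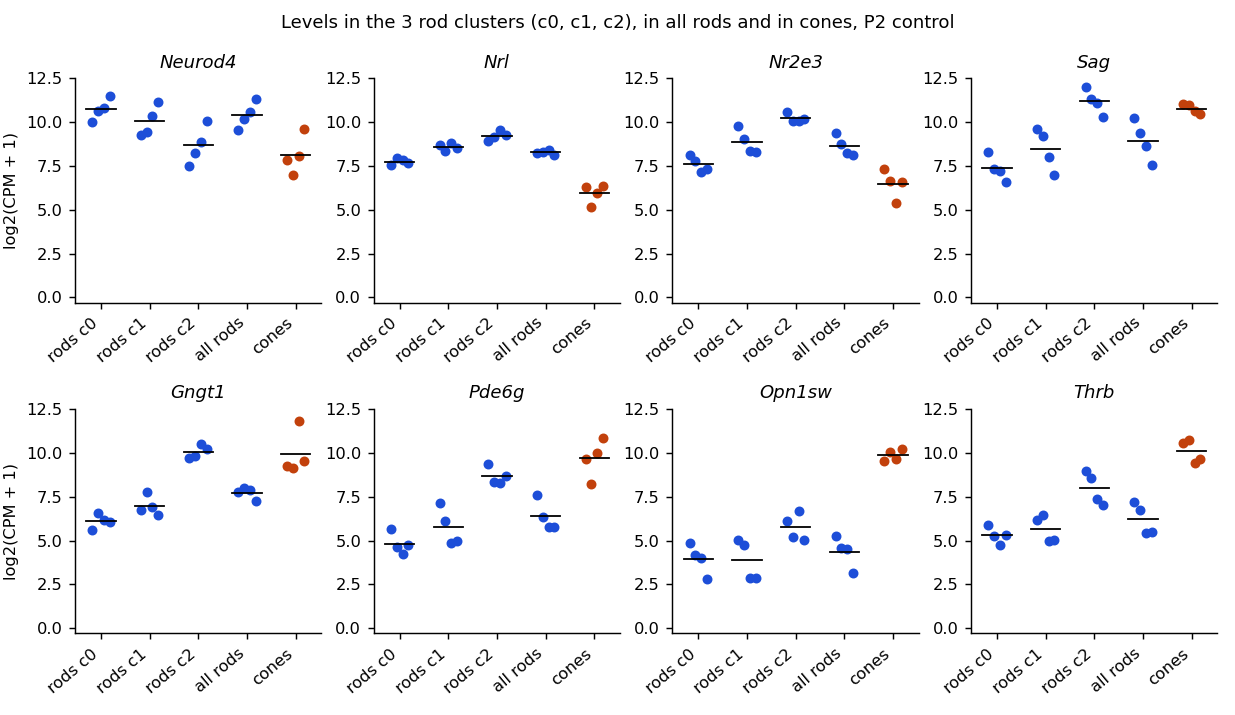
Levels, as log2(CPM + 1), of 8 genes in rods of clusters 0, 1 and 2 (c0, c1, c2), in all rods and in cones; each point is 1 P2 control library and the line is the mean of 4. Sag, Gngt1, Pde6g and Thrb climb from cluster 0 to cluster 2 by mean level while Neurod4 falls. Cones sit near cluster 2 for Sag and Gngt1, below every rod cluster for Nrl and Nr2e3 by mean, and above all of them for Opn1sw and Thrb.

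The rod factors Nrl and Nr2e3 were lower in cones. Nrl was at 76.5, 34.7, 61.1 and 79.6 CPM in cones and 298, 316, 345 and 278 CPM in rods, 5.00-fold lower in cones with no overlap (log2 -2.32, SE 0.25, adjusted p 5.97e-10 in edgeR). Nr2e3 was at 162, 99.7, 40.7 and 93.4 CPM against 673, 435, 296 and 277 CPM (log2 -2.15, SE 0.25). Both were called lower against every rod cluster, by 1.77 to 3.11 and 1.09 to 3.58 in log2 size. Of 9 rod factors tested, 5 were called lower (Nrl, Nr2e3, Samd11, Casz1 and Rorb) and 1 higher: Mef2c, an activity-linked MADS-box factor, was at 36.1, 65.0, 13.6 and 13.8 CPM in cones and 7.24 to 11.3 CPM in rods (log2 1.91, SE 0.34), with its high values in libraries 1 and 2 (log2 0.50, adjusted p 0.815 in edgeR with libraries 3 and 4 only).

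The calls of Casz1 and Rorb were lost when some libraries were left out. Casz1, a zinc-finger factor, was at 393, 455, 40.7 and 260 CPM in cones and 623, 481, 253 and 527 CPM in rods (log2 -0.96, adjusted p 0.00692 in edgeR; without library 3, -0.69 and 0.137). Rorb, which acts upstream of Nrl, was at 1255 to 2450 CPM against 3137 to 4519 CPM (log2 -1.13, adjusted p 0.00569; without library 1 -1.22 and 0.0912, without library 3 -1.02 and 0.127), and its difference from cluster 2 rods was -0.14. Samd11, a rod regulator, was at 72.8, 121, 88.2 and 51.9 CPM against 224, 344, 312 and 88.0 CPM (log2 -1.56, SE 0.23). Samd7, Mef2d and Nr1d1 were not called (log2 -0.37, 0.27 and -0.36), though Samd7 was lower against clusters 1 and 2 (log2 -0.56 and -1.49). Esrrb and Ikzf1 were too low to test, at no more than 3.46 CPM in cones.

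Among 13 cone or early photoreceptor factors tested, 4 were called higher and 3 lower. Thrb, the thyroid hormone receptor that M opsin requires, was at 1498, 1746, 679 and 810 CPM in cones and 149, 105, 42.1 and 43.6 CPM in rods, 13.8-fold higher (log2 3.78, SE 0.26, adjusted p 1.48e-15 in edgeR). Sall3, a spalt factor, was at 75.9, 78.0, 20.4 and 58.8 CPM against 0.134 to 2.06 CPM (log2 5.90, SE 0.40), and Rxrg, the retinoid X receptor partner, at 58.7, 99.7, 61.1 and 104 CPM against 16.4 to 29.3 CPM (log2 1.81, SE 0.24). In these genes every cone library exceeded every rod library, and each was called against all 3 rod clusters. Pou2f2, a POU factor, was called at 3.46 to 14.1 CPM against 1.07 to 3.66 CPM (log2 1.96), but not without library 1 (log2 1.47, adjusted p 0.435).

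The cone or early photoreceptor factors called lower were Neurod4, Onecut2 and Nr2f1. Neurod4 was at 226, 126, 265 and 792 CPM in cones and 756, 1161, 1524 and 2587 CPM in rods (log2 -2.33, SE 0.29), and Onecut2, a cut-homeodomain factor of early photoreceptor and horizontal precursors, at 30.3 to 39.8 CPM against 58.0 to 129 CPM (log2 -1.45, SE 0.25). Neither was called against cluster 2 rods (log2 -0.45 and -0.49). Nr2f1, an orphan nuclear receptor of opsin patterning, was just past the threshold (log2 -0.91, adjusted p 0.0365 in edgeR) and lost it when any 1 library was left out (log2 -1.32 to -0.78, adjusted p 0.0506 to 0.103). Onecut1, Pou2f1, Isl2, Six6, Lhx4 and Nr2f2 were not called, with log2 differences from -0.30 to 1.09, and Six6 was called higher without library 2 (log2 0.60). Against cluster 2 rods 5 of 10 cone factors were called higher and 0 lower, among them Lhx4 (log2 2.74, adjusted p 3.22e-07 in edgeR) and Six6 (log2 1.00). Olig2 and Prdm13 were too low to test. Of 14 thyroid and retinoid genes tested, Thrb and Rxrg were higher, Rorb was lower, and 11 were not called. Over all genes 10.4 percent were called higher and 6.8 percent lower, and 12.3 percent were called either way against cluster 2 rods. The thyroid and retinoid counts are not far from those shares. The counts of cone or early photoreceptor factors lie above them, in a short list.

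**Figure D3:**
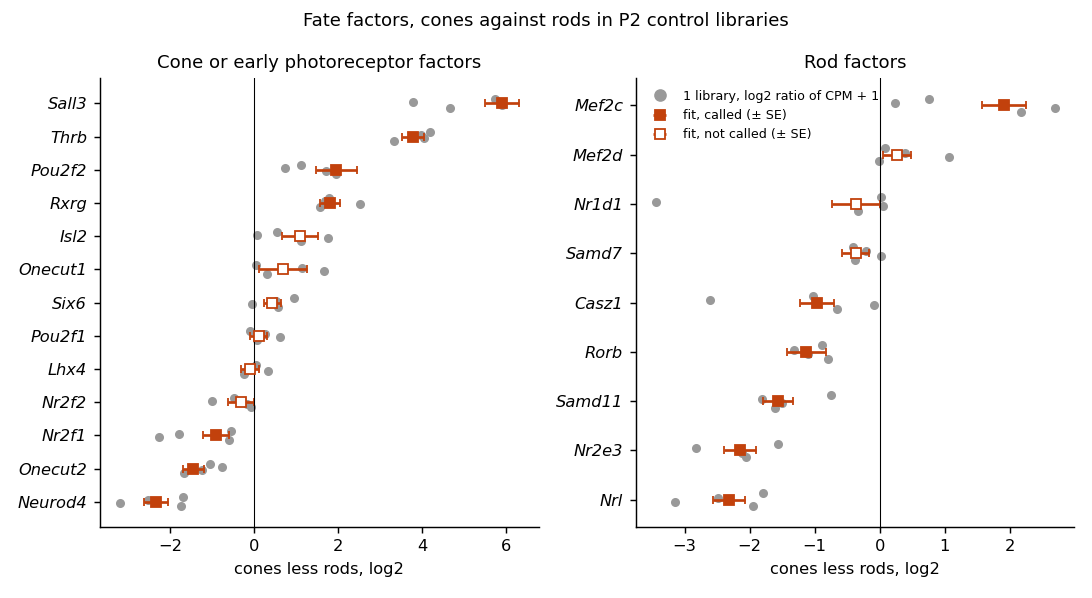
Log2 difference of cones and rods for 13 cone or early photoreceptor factors (left) and 9 rod factors (right); grey points are the log2 ratio of CPM + 1 in each of 4 libraries, squares the edgeR fit with its SE, filled where the adjusted p was under 0.05. Sall3 and Thrb lie far to the right, Neurod4, Nrl and Nr2e3 far to the left, and single libraries stray for Casz1 and Nr1d1.

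Genes used by rods and cones alike leaned to cones: 12 of 21 tested were called higher and 4 lower (median log2 1.04), beside 10.4 and 6.8 percent of all genes. Against cluster 2 rods 6 of 20 were higher and 3 lower (Pdc, Neurod1 and Rdh12), with a median of 0.18, beside 12.3 percent of all genes called. Rdh12 was thus called higher against all rods and lower against cluster 2. In the P2 MEIS libraries 7 of 15 were higher and 3 lower, with a median of 0.04, beside 8 and 6.96 percent of all genes. Without library 1, and likewise without library 3, 2 were lower. Guca1a and Guca1b encode the guanylate cyclase activating proteins GCAP1 and GCAP2. Guca1a was at 725, 680, 2640 and 1730 CPM in cones and 10.6, 9.23, 4.76 and 1.34 CPM in rods (log2 7.53, SE 0.45, adjusted p 1.95e-17 in edgeR). Guca1b was even over libraries, 407, 347, 360 and 363 CPM against 4.30, 6.57, 1.46 and 0.669 CPM (log2 6.82, SE 0.30). Both exceeded rods of every cluster, Guca1a by 6.45 to 7.69 and Guca1b by 5.10 to 7.63 in log2.

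Rcvrn, recoverin, which slows the shutoff of opsin, was at 788, 416, 1513 and 1630 CPM in cones and 41.8, 32.4, 19.6 and 10.0 CPM in rods (log2 5.22, SE 0.38). Aipl1, a chaperone of PDE6, was at 392, 299, 414 and 467 CPM against 55.1, 42.9, 20.7 and 21.0 CPM (log2 3.45, SE 0.24). Both stayed higher against cluster 2 rods, at log2 2.81 and 1.50. The 4 called lower were the early factors Otx2 (log2 -1.33), Neurod1 (-1.07) and Prdm1 (-0.65) and the retinoid transporter Abca4 (-1.16). Of these, Neurod1 alone was also called lower against cluster 2 rods. Crx, the photoreceptor homeobox factor, differed by -0.06 (SE 0.23) and was not called. Rgs9bp, the anchor of the protein that speeds transducin shutoff, was at 23.9 to 48.4 CPM against 1.65 to 3.44 CPM (log2 3.68).

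Genes of the outer segment, synapse and energy supply followed. Over all genes 10.4 percent were called higher and 6.8 percent lower. Either way, 20 and 12.3 percent were called against clusters 0 and 2. Of 23 outer segment and cilium genes, 7 were called higher and 1 lower (Rom1, a disc rim protein, log2 -1.69). The balance turned with the rods chosen: 14 of 22 were higher and 1 lower against cluster 0, and 3 of 22 higher and 6 lower, Rom1 among them, against cluster 2, with a median log2 of -0.14. Tulp1, a protein of transport to the outer segment, was at 933, 1083, 950.0 and 1003 CPM in cones and 449, 385, 220 and 160 CPM in rods (log2 1.71, SE 0.26, adjusted p 1.37e-06 in edgeR), with cones above every rod library. Fam161a, a ciliary protein, was at 133 to 178 CPM against 6.02 to 36.8 CPM (log2 2.90), Rp1l1 at 33.9 to 152 CPM against 6.95 to 29.6 CPM (log2 2.24), and Pcdh15 at 5084, 5543, 1377 and 1644 CPM against 2055, 927, 448 and 213 CPM (log2 2.00). Rp1l1, Pcdh15 and Tulp1 were not called against cluster 2 rods (log2 0.32, 0.27 and 0.19).

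Of 27 ribbon synapse genes, 14 were called higher and 0 lower (median log2 0.90). Lrit3, a synaptic adhesion protein of photoreceptor terminals, was at 177, 208, 204 and 149 CPM in cones and 4.61, 4.54, 3.11 and 3.34 CPM in rods, 42.2-fold higher (log2 5.40, SE 0.23). Cabp4, which tunes the photoreceptor calcium channel, was at 55.7, 147, 74.6 and 41.5 CPM against 0.268 to 2.32 CPM (log2 5.33), Elfn2 at 13.6 to 43.3 CPM against 1.07 to 2.35 CPM (log2 3.96) and the vesicle protein Sv2a at 54.3 to 149 CPM against 2.93 to 12.3 CPM (log2 3.49). The groups did not overlap in any of these, and Lrit3, Cabp4 and Sv2a were also called against cluster 2, where 9 of 25 synapse genes were higher and 0 lower.

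Energy genes gave 14 of 27 called higher and 1 lower (Txnip, an inhibitor of thioredoxin, log2 -1.13); 8 were higher without library 3 and 9 without library 4. Ckmt1, mitochondrial creatine kinase, was at 82.6, 52.0, 74.6 and 114 CPM in cones and 4.38, 2.35, 0.549 and 1.07 CPM in rods (log2 5.00, SE 0.34); Slc16a1, a lactate transporter, was at 13.0 to 27.1 CPM against 0.915 to 1.88 CPM (log2 3.53), Eno2 at 47.5 to 86.7 CPM against 14.2 to 23.1 CPM (log2 1.87) and Pygm, muscle-type glycogen phosphorylase, at 10.4 to 13.6 CPM against 1.61 to 2.97 CPM (log2 2.24; without library 1 2.28, not called, adjusted p 0.0804 in edgeR). Against cluster 2 rods only 3 of 20 energy genes were called higher and 3 lower, beside 12.3 percent of all genes called. Txnip was not among the genes called lower against cluster 1 or cluster 2.

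Lower in cones were 8 of 21 nuclear architecture genes and 10 of 19 Notch and neurogenic genes, with 0 higher in either list. Of all genes 6.8 percent were called lower and 10.4 percent higher. The nuclear architecture count fell to 2 without library 1, to 3 without library 3 and to 4 with DESeq2. In those settings the count of all genes called lower also fell, from 789 to 392, 467 and 551. Against cluster 2 rods 3 of 17 nuclear architecture genes were lower and 1 higher. Hist1h1c, a linker histone, was at 55.1, 13.0, 40.7 and 48.4 CPM in cones and 158, 182, 219 and 98.1 CPM in rods (log2 -1.94, SE 0.26). Notch1, the receptor that holds progenitors undifferentiated, was at 33.6, 13.0, 0 and 31.1 CPM against 113, 76.2, 63.5 and 109 CPM (log2 -2.06, SE 0.27), and Dll3, a Notch ligand of newly made neurons, at 4.33 to 12.8 CPM against 34.3 to 46.0 CPM (log2 -2.06). Sox4, an early neuronal factor, was at 397, 99.7, 102 and 412 CPM against 954, 497, 404 and 933 CPM (log2 -1.70), but 0.37 higher, not called, against cluster 2 rods. Against that cluster 2 of 10 Notch and neurogenic genes were called lower, and 11 of 17 against cluster 0, beside 12.3 and 20 percent of all genes called.

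Other members of these lists kept differences of similar size but not their calls when a library was left out. H1f0 was called with log2 -0.89 and not without library 3 (log2 -0.72, adjusted p 0.0660 in edgeR). Without library 1, Hmgb3 was at -0.86 (-0.76 with it) and Rgs16 at -1.84 (-1.56 with it), neither called (adjusted p 0.0619 and 0.0803). Hist1h1d was called with log2 -1.74 and not without library 1, 2 or 3 (log2 -1.99 to -1.54, adjusted p 0.0813 to 0.154). Hmgb3, a chromatin protein, was 0.11 higher against cluster 2 rods, not called.

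**Figure D4:**
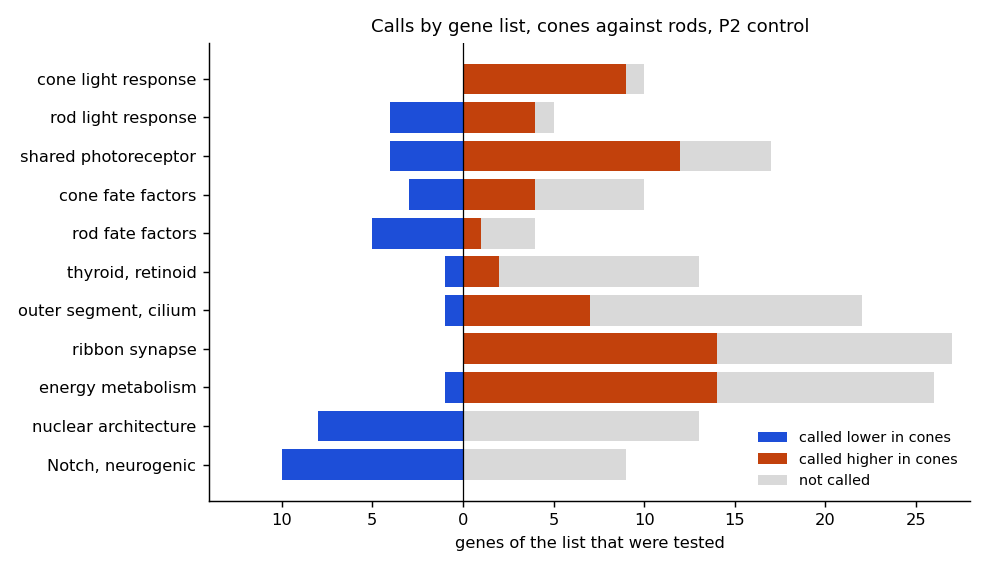
Number of tested genes of each list (horizontal axis) called lower in cones (blue, to the left), called higher (orange, to the right) and not called (grey). Cone light response and ribbon synapse genes have no blue bar, nuclear architecture and Notch or neurogenic genes have no orange bar, and rod light response genes have both, 4 higher and 4 lower.

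Outside the lists, the 10 largest rises and falls were taken by rule. The rises were Cdh18, Kcne2, Rgs7, Fmn1, A930003A15Rik, Dnah9, Alk, Hspa1a, Mylk and Adrb1, with log2 differences from 4.29 to 7.40. Cdh18, a cadherin adhesion protein, was at 580, 806, 346 and 315 CPM in cones and 2.27, 7.04, 2.93 and 0.937 CPM in rods (log2 7.40, SE 0.29, adjusted p 2.58e-23 in edgeR). Kcne2, a potassium channel subunit, was at 195, 78.0, 394 and 488 CPM against 0.803 to 2.97 CPM (log2 6.81), and Rgs7, a regulator of G protein signalling, at 608, 745, 305 and 173 CPM against 1.34 to 14.2 CPM (log2 6.10). Adrb1, a beta adrenergic receptor, was at 102 to 145 CPM against 2.82 to 13.2 CPM (log2 4.29).

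Hspa1a, an inducible heat shock protein nearly identical in sequence to Hspa1b, was the uneven one: 849, 30.3, 237 and 86.5 CPM in cones and 81.0, 1.25, 4.94 and 0.268 CPM in rods, higher in cones within each library but overlapping between them (log2 4.57). Among gene groups picked after their values were seen, 4 of 9 heat shock genes were called higher and 0 lower, 4 of 10 immediate early genes higher and 1 lower, and 4 of 13 mitochondrially encoded genes higher and 0 lower, beside the higher mitochondrial percentages of cones given above. Of 81 cytosolic ribosomal protein genes 31 were called lower and 0 higher; they held 5.33, 3.46, 11.3 and 13.1 percent of the UMIs of cones and 7.01, 9.41, 13.9 and 16.2 percent of those of rods. Whether dissociation or RNA quality had a part in these groups was not tested. Over all genes 10.4 percent were called higher and 6.8 percent lower.

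The falls were Vipr2, St14, Lrp4, Nxph4, GFP, Tmem158, Mfap4, Insm2, Nfib and 3110035E14Rik, with log2 differences from -2.77 to -2.01. Vipr2, a neuropeptide receptor, was at 32.4, 8.67, 6.79 and 17.3 CPM in cones and 155, 139, 107 and 130 CPM in rods (log2 -2.77, SE 0.28), and Nfib, a late-stage nuclear factor I, at 143 to 225 CPM against 554 to 785 CPM (log2 -2.05). GFP, the transcript of the construct itself, was at 7722, 845, 2341 and 5187 CPM in cones and 25631, 5404, 10744 and 22298 CPM in rods, lower in cones in 4 of 4 libraries although the ranges overlapped (log2 -2.28, SE 0.39, adjusted p 1.92e-05 in edgeR; with libraries 1 and 2 only -2.30, not called, adjusted p 0.263). Against cluster 2 rods GFP differed by -0.81, Nfib by -0.07 and Insm2 by -0.96, none of them called, and 3110035E14Rik by 0.02 against cluster 1.

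Markers of other cell types were read beside these results. Over all genes 10.4 percent were called higher and 6.8 percent lower. Progenitor and glia markers summed to 594 to 1778 CPM in cones and 3736 to 7646 CPM in rods; 2 of 12 tested were called lower, Fabp7 (468 to 1554 against 3484 to 7414 CPM, log2 -2.45; -0.12 against cluster 2, not called) and Vim (log2 -0.98; without library 2 -0.70, adjusted p 0.0792 in edgeR), and 0 higher. Amacrine markers summed to 489 to 923 CPM in cones and 1310 to 1724 CPM in rods, most of it Meis2, itself called lower (log2 -1.40; not against cluster 2, log2 -0.21, nor with libraries 1 and 2 only, log2 -1.24, adjusted p 0.109). Horizontal markers summed to 299 to 450 against 538 to 883 CPM, with Ndrg1 (log2 -1.34) and Onecut2 lower. Bipolar markers summed to 133 to 249 against 199 to 407 CPM, with Cabp5 higher (21.7 to 81.4 against 3.31 to 7.87 CPM, log2 2.57) and Pcp2 lower (log2 -1.99; -0.54 against cluster 2, not called). Cell cycle markers summed to 43.3 to 88.2 against 35.1 to 52.4 CPM, with Tyms alone called (log2 1.29; 1.04 without library 1 or 3, not called, adjusted p 0.514 and 0.172). Ganglion cell markers summed to at most 21.7 CPM in cones, and markers of microglia, vessels, blood and pigment epithelium to at most 26.0 CPM, with Mitf called higher (log2 1.89) but not with DESeq2 (log2 1.74, adjusted p 0.0564) or without cells of 10 percent mitochondrial UMIs or more (log2 1.43, adjusted p 0.126 in edgeR). Against cluster 0 rods 4 of 12 progenitor and glia markers were called lower and 0 higher, beside 20 percent of all genes called. The part of other cells in the results was not tested. A doublet caller (Scrublet) marked 9.09, 0, 12.0 and 0 percent of the cones and 4.07, 0, 2.51 and 0.0575 percent of the rods. Cones were thus marked more often in libraries 1 and 3. Without marked cells, 1267 genes were called higher and 937 lower. The caller marked 0 of 4712 cells in library 2, so it removed nothing there, and why was not tested.

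Single cells were compared after thinning each to 2000 UMIs, which kept 429 of 535 cones and 10779 of 13602 rods. In library 2, rods of clusters 0, 1 and 2 had median UMIs of 3518, 1393 and 1635. In library 3 these were 2666, 1811 and 1887. Rods kept from libraries 2 and 3 thus leaned to cluster 0, and rod shares below carry that lean. At that depth 48.5 percent of cones had an Opn1sw UMI (exact binomial 95 percent interval 43.7 to 53.3, which covers counting error only), against 3.83 percent of rods, 1.69 percent of amacrine cells and 0.917 percent of progenitors, which should lack it; unthinned, the cone share was 60.7 percent. Thrb was found in 83.9 percent of cones (80.1 to 87.3), 14.4 percent of rods and 13.4 percent of amacrine cells. The share in all rods was thus close to that in a type other than a photoreceptor, but rods were uneven. Mean unthinned Thrb levels in rod clusters 0, 1 and 2 were 40.2, 55.6 and 293 CPM. Cones exceeded these clusters by 4.72, 4.36 and 2.12 in log2. By library Thrb was found in 87.1, 93.5, 64.9 and 65.9 percent of cones.

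Rod transcripts within cones differed from gene to gene. Sag was found in 88.1 percent of cones, 37.9 percent of rods and 12.1 percent of amacrine cells, and Pde6g in 60.6, 18.2 and 3.60 percent. Nrl was found in 6.29 percent of cones (4.19 to 9.03), 42.1 percent of rods and 4.68 percent of amacrine cells. By library its share was 7.34, 1.61, 2.70 and 9.09 percent of cones and 4.13, 5.997, 4.43 and 11.6 percent of amacrine cells, below that of amacrine cells in 3 of 4. Nr2e3 was in 14.9 percent of cones (11.7 to 18.6) against 7.23 percent of amacrine cells. Summed over the cone light response list, cones held a median of 14 UMIs of 2000 with 0 of 429 at 0, and rods a median of 4. Summed over the rod list without Gnb1, cones held a median of 6 with 20 of 429 at 0, and rods a median of 0 with 5876 of 10779 at 0. Rods differed between libraries: 2967 of 6669 were at 0 in library 1 (median 1), 612 of 1061 in library 2, 1006 of 1382 in library 3 and 1291 of 1667 in library 4 (median 0 in each).

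The P2 MEIS libraries, which were not used by the comparison above, gave the same directions for most genes called there. Their cones and rods are the same clusters, so if clusters came from expression, the naming itself favours the same directions. Of 5700 genes tested there 456 were higher (8 percent) and 397 lower (6.96 percent), 15 percent in all. Of the 1204 higher and 789 lower genes called in P2 control, 536 and 634 were also tested there. Among those, 527 of 536 higher and 615 of 634 lower had the same direction, and 0 were called the other way. The share of all genes with the same direction was not counted. In those libraries Opn1sw differed by 5.35 (SE 0.24), Guca1a by 7.71, Thrb by 3.63, Sag by 1.57 and Gngt1 by 1.90 in log2, close to the P2 control values of 5.40, 7.53, 3.78, 1.71 and 2.10. Nrl and Nr2e3 differed by -1.08 and -1.05, against -2.32 and -2.15 in P2 control. The difference between the sets of libraries was not tested. The MEIS2 library used was shallow, with a median of 836 UMIs in rods and 1304 in cones. Rods of the other MEIS libraries used had medians of 2684 to 8638. Without that MEIS2 library 638 genes were called higher and 558 lower.

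At P5 the cone class itself was uneven. The 103 cones of P5 control 1 had Opn1sw at 1196 CPM, Arr3 at 947 CPM and Nr2e3 at 145 CPM. The 24 cells named cones in P5 control 2 had Opn1sw at 158 CPM, Arr3 at 52.8 CPM and Nr2e3 at 832 CPM (rods 1571 CPM). These levels go against their label, but Opn1sw was still above the rods of that library. With P5 control 2 as the only P5 library, the Opn1sw difference of cones and rods changed by -0.59 from P2. At P2 that difference was 4.03 to 6.10 in log2 over all settings. Over both, 12428 genes were tested, and 286 were higher and 307 lower (4.77 percent, with DESeq2 71 and 4). With 1 residual degree of freedom, the prior ones were infinite, so edgeR p-values there used only a variance shared over genes. Of the genes called in P2 control and also tested at P5, 947 of 1153 higher (82.1 percent) and 664 of 760 lower (87.4 percent) had the same direction, with 15 and 2 called the other way. P5 controls 3 and 4 had 4 and 5 cones and were not tested. Median mitochondrial percentages were 18.8 in cones and 10.1 in rods of P5 control 1, and 7.43 and 3.98 in P5 control 2. At P2 they were 2.76 to 9.54 in cones and 2.10 to 5.20 in rods. The part of mitochondrial content in the changes between ages was not tested. Cone light response genes were still higher, 7 of 9 tested (2.3 percent of all genes were called higher and 2.47 percent lower), with Gngt2 called lower (log2 -1.04). Of rod light response genes 0 of 10 were called higher and 5 lower. DESeq2 called the same number of cone light response genes higher, 7, but 0 of the rod ones lower, and neither Gngt2 (log2 -0.95) nor Gngt1 (log2 -0.79).

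The change between ages was tested as the interaction of cell type and age: of 13425 genes, 40 had a larger (more positive) difference at P5 (0.298 percent) and 258 a smaller one (1.92 percent), 2.22 percent in all. Leaving out P5 control 2 gave 54 and 131. The opsin difference did not change detectably (Opn1sw 0.05, SE 0.43; 0.35, SE 0.53, without P5 control 2), while it was smaller for several shared and rod light response genes: Rcvrn changed by -5.07 (-4.98 without P5 control 2), Guca1b by -4.49 (-4.38), Pde6g by -4.04 (-3.70), Guca1a by -3.63 (-3.68; with DESeq2 -3.71, not called, adjusted p 0.200), Aipl1 by -3.43 (-3.32), Gngt1 by -2.99 (-3.05) and Sag by -2.53 (-2.84; without P5 control 1 -2.22, not called, adjusted p 0.0597). The fate factor Thrb changed by -2.69 (-1.95 without P5 control 2, -3.54 without P5 control 1). At P5 Guca1a (log2 3.92), Guca1b (2.35) and Thrb (1.11; with DESeq2 1.17, not called, adjusted p 0.440) were still called higher in cones, Rcvrn (0.18), Aipl1 (0.04), Pde6g (-0.81) and Sag (-0.80) were not called, and Gngt1 was called lower (-0.87). Of the energy genes, Ckmt1 changed by -3.27 (-2.68 without P5 control 2, -4.78 without P5 control 1). In P5 control 1, Rcvrn stood at 336 CPM in cones and 292 CPM in rods, and Sag at 1954 and 4390 CPM. Rods were thus near the cone level of Rcvrn and above that of Sag there. Cone Rcvrn in that library was below the 416 to 1630 CPM of P2 cones, and cone Sag was within their 1398 to 2144 CPM. Cluster 2 held 37.6 and 42.6 percent of the rods of P5 controls 1 and 2 against 8.68 to 25.3 percent at P2; its part in the change was not tested. Outside the lists, A930003A15Rik (-4.89), Ankrd33 (-3.55) and Uckl1os (-3.43, an antisense RNA that cannot be told from its partner unless strand was counted) had the largest falls, and Lypd1 (3.06), Btbd17 (2.92) and Ryr3 (2.82) the largest rises; with DESeq2 their changes were 4.04, 2.97 and 2.59, not called (adjusted p 0.230, 0.109 and 0.0871). Without P5 control 1, Lypd1 was not called (1.52), and Btbd17 (-7.30) and Ryr3 (-8.78) turned in sign, both at 0 in the cones that remained.

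**Figure D5:**
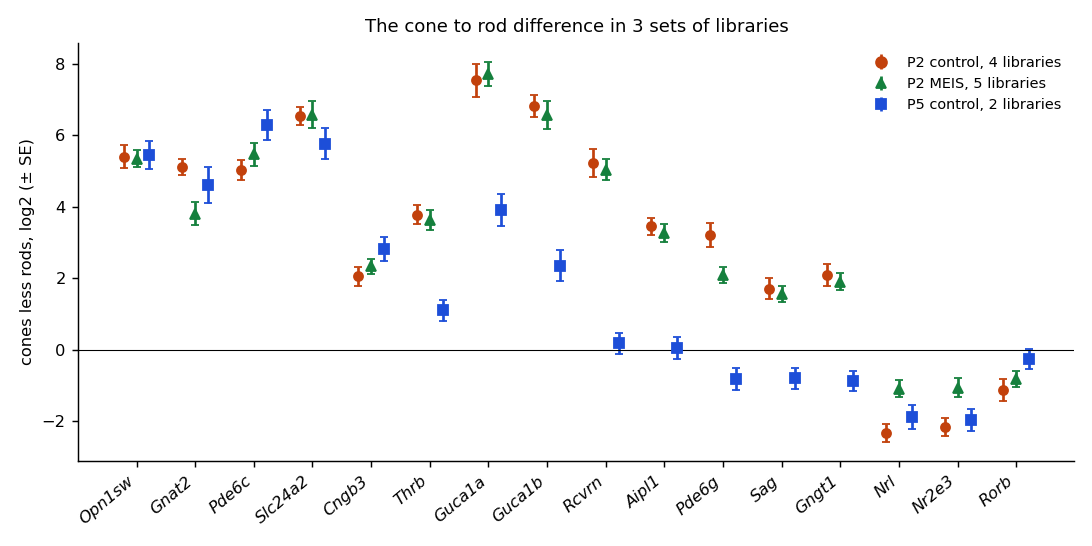
Fitted log2 difference of cones and rods (vertical axis, with SE) for 16 genes in P2 control (circles, 4 libraries), P2 MEIS (triangles, 5 libraries) and P5 control (squares, 2 libraries). The 3 marks lie close together for Opn1sw, while at P5 the marks of Rcvrn and Aipl1 lie near 0 and those of Pde6g, Sag and Gngt1 below it.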

How the data were processed

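Single-cell RNA was measured with 10x Genomics 3′ chemistry, and counts per gene and cell were deposited by the authors as 1 table of 23260 genes and 79009 cells, with a table of cell types, clusters, libraries and the percent of mitochondrial UMIs per cell, also deposited. Per the submitters' processing notes, Cell Ranger, Seurat 5 and mm10 were used; settings, strand and how cells were clustered and named are not given in the sources used here. The summed depth per library was 147369 to 1634584 UMIs in cones and 5464307 to 38376123 in rods. Sums were fitted with edgeR 4.0.16 (R 4.3.3; TMM, filterByExpr, quasi-likelihood F test, Benjamini-Hochberg adjustment, library as block); the SE is the log2 difference divided by the root of F. Libraries needed at least 20 cones, or 15 for P2 MEIS. Cones and rods of 1 library come from the same sample; over 5376 genes, deviations of cones correlated at 0.522 to 0.728 with the rods of their own library, the best match in 4 of 4. Alternatives used DESeq2 1.42.0 and Scrublet in scanpy 1.11.5. The procedure was run on simulated counts with the same spread for every gene, which cannot show how p-values hold where genes differ in spread.

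Named genes were all measured light response and fate factors, up to 4 called members of each other list by size of difference, the 10 largest rises and 10 largest falls outside the lists (average log2 CPM 5 or more, 1 direction in 4 of 4 libraries), and for the ages up to 6 called list members plus 3 rises and 3 falls. Other list members given with values (Otx2, Neurod1, Prdm1, Abca4, Crx, Rom1, Txnip) were picked with their values known. The comparison and lists were chosen with earlier results of these data known. A few genes are not reported here; they stayed in the fits and adjustments but in no list, list sum, count of list members or named gene. Cells of 8 other libraries (23507) were not used. Promoters were from RefSeq on GRCm38.p6.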

Additional observations from a re-analysis of the deposited data

Results flagged for a closer look

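In 6 genes 1 library stood apart from the other 3 in the log2 ratio of cones to rods (CPM + 1); 99 sets of 4 libraries were looked at, and chance alone marks about 1 in 20. Cnga3 was at 6.78 in library 2 (others 4.81 to 4.97), Cnga1 at -5.25 in library 2 (-3.18 to -2.84) and Vim at -3.34 in library 2 (-0.73 to -0.49). Ndrg1 was at -1.42 in library 2 (-1.19 to -1.17). Nr1d1 was at -3.44 in library 3 (-0.33 to 0.05) and Mitf at -0.95 in library 4 (1.46 to 1.81). Cones of the library that stood apart had 0 UMIs of Cnga1, Nr1d1 and Mitf, so those values depend on the added 1.

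The difference of cones and rods changed between P2 and P5 (interaction term of the edgeR fit) by -5.07 for Rcvrn, -4.49 for Guca1b, -4.04 for Pde6g, -3.63 for Guca1a, -3.43 for Aipl1, -3.27 for Ckmt1, -4.89 for A930003A15Rik, -3.55 for Ankrd33 and -3.43 for Uckl1os. It changed by 3.06 for Lypd1, 2.92 for Btbd17 and 2.82 for Ryr3. The cells named cones in P5 control 2 had Nr2e3 at 832 CPM, against 1571 CPM in the rods of that library. With P5 control 2 alone (P5 control 1 left out), Lypd1 (1.52) was not called, and Btbd17 and Ryr3, both at 0 in those cones, turned in sign.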

How the results depend on the processing

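Of 82 called genes among the 105 named, 48 kept their call in every setting that gave a value. For the changes below the cause was not tested, except that leaving out libraries leaves fewer samples. Without the replicate block, the calls (higher, lower) were 636 and 174 at P2 control (1204 and 789 with it), 14 and 0 at P5, 283 and 90 in P2 MEIS, 0 and 0 for the interaction, and 17 list members were lower (41 with it). Leaving out 1 library gave 728 to 1135 higher and 392 to 859 lower at P2, 326 to 638 and 177 to 558 in P2 MEIS, 12 to 94 and 118 to 415 for the interaction, and 59 to 70 higher and 27 to 40 lower list members. Leaving out a P5 library from the P5 fit was not run, since 1 pair has no residual degrees of freedom. DESeq2 gave 71 and 4 at P5, 219 lower in P2 MEIS, and 14 and 90 for the interaction; no low-count filter gave 764 lower in P2 MEIS and shifted the median of all P2 genes by -0.20. Against cluster 2 rods 599 and 317 genes were called, with 37 list members higher (68 in all rods). Libraries 1 and 2 alone gave 348 lower and 25 list members lower, and libraries 3 and 4 alone 689 higher. The share of cones with an Opn1sw UMI was 41.2 percent at 1000 UMIs and 60.7 percent unthinned. Signs turned against cluster 2 rods for Gngt1 (-0.11), Sag (-0.39), Lhx4 (2.74), Hmgb3 (0.11), Sox4 (0.37) and Vim (0.69), against cluster 1 for Lhx4 (0.17) and 3110035E14Rik (0.023), against cluster 0 for Samd7 (0.33), in libraries 1 and 2 for Gngt2 (-0.15), in libraries 3 and 4 for Pou2f1 (-0.071; leaving out 1 library gave -0.0345 to 0.20, lowest without library 2), and without P5 control 1 for Btbd17 (-7.30; leaving out 1 library gave up to 3.49) and Ryr3 (-8.78; up to 3.37). The summed cones of libraries 2 to 4, at 147369 to 288997 UMIs, limit what could be detected in genes of few counts. Single rod clusters, pairs of libraries, the limit of 15 cones and the fits without the block at P5 and in P2 MEIS were added after seeing the data.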
